A study of Mus musculus with 18 samples.

Results

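The intercalated disc is the junction at which heart muscle cells are joined end to end, and 10 genes of its gap junctions, desmosomes and adherens junctions were followed here. They were Gja1, Gja5, Gjc1, Tjp1, Dsp, Pkp2, Dsg2, Dsc2, Jup and Cdh2, taken by symbol from a table of 54532 genes. Each symbol stood under a single gene ID, and all 10 passed the filter on low counts that left 17876 genes for testing. RNA sequencing covered the apex of hearts of mice whose genotype is given as WT, with 2 batches and 6 groups, each of 3 libraries. In batch LC were hearts labelled Lmna shRNA plus lamin C, hearts labelled Lmna shRNA alone and control hearts. In batch LA were hearts labelled Lmna shRNA plus lamin A, hearts labelled Lmna shRNA alone and control hearts. The study asked whether raising lamin A or lamin C through rAAV9, an adeno-associated virus that reaches heart muscle, alters a dilated cardiomyopathy made by Lmna knockdown. The sources used here do not give the age of the mice, the promoter that drove each insert or what the control hearts received. Nothing states that the 3 libraries of a group came from separate mice, so p-values measure the spread between these libraries, which may be partly technical.

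Gap junctions are clusters of connexin channels that pass ions from cell to cell, and they carry the action potential through the ventricle. Desmosomes hold the cells together mechanically: the cadherins desmoglein and desmocollin bind the neighbouring cell, and the plaque proteins plakoglobin, plakophilin and desmoplakin tie them to desmin filaments. N-cadherin does the same for actin in the fascia adherens. In people, mutations of the desmosomal genes are a known cause of arrhythmogenic cardiomyopathy, and mutations of LMNA, the gene of lamins A and C of the nuclear lamina, are a known cause of dilated cardiomyopathy with conduction disease.

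On build mm10 the deposited gene spans were identical to those of GENCODE vM21 for all 10 genes. The connexin genes lie at chr10:56377330-56402513 on the plus strand (Gja1), chr3:96904693-97077416 on the plus strand (Gja5) and chr11:102799579-102819700 on the minus strand (Gjc1). The desmosomal cadherins Dsg2 (chr18:20558074-20604521, plus) and Dsc2 (chr18:20030633-20059554, minus) share chromosome 18 with the N-cadherin gene Cdh2 (chr18:16588877-16809246, minus). The plaque genes lie at chr13:38151294-38198577 (Dsp, plus), chr11:100368958-100397763 (Jup, minus) and chr16:16213318-16272712 (Pkp2, plus), and Tjp1 lies at chr7:65296165-65527781 on the minus strand. Exons of 3 of the genes overlap a gene on the other strand: Dsg2 shares 330 bases (3.99% of its exonic length) with Gm16090, Dsp shares 499 bases (5.17%) with Gm10129, and Gja5 shares 165 bases (2.87%) with Gpr89. No label or header says if strand was used in counting, so reads from those stretches cannot be told apart.

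Libraries held 31418657 to 41259968 counts, so that 3 counts equalled 0.0622 to 0.108 CPM, where CPM is edgeR's count relative to the library total after TMM scaling (trimmed mean of M values). The targeted gene did not follow its label. Lmna stood at 137, 134 and 115 CPM in hearts labelled shRNA and at 122, 129 and 120 CPM in control hearts of batch LC, and at 127, 122 and 130 CPM in hearts labelled shRNA and 120, 120 and 112 CPM in control hearts of batch LA. The log2 differences were 0.06 ± 0.08 (SE, edgeR adjusted p = 0.578) and 0.11 ± 0.08 (edgeR adjusted p = 0.258), so no fall of Lmna was detectable in this bulk tissue, and the groups are named below by their labels. The added lamins did show: Lmna reached 1317, 1064 and 1375 CPM with lamin C and 556, 537 and 502 CPM with lamin A, so the lamin groups differed in Lmna level as well as in isoform and batch.

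Compared per length in the 6 control hearts, Dsp was the most abundant member at a mean of 119 FPKM (the deposited fragment count per kilobase, relative to library size), followed by Gja1 at 60.1, Jup at 46.6 and Cdh2 at 44.4 FPKM. Pkp2 stood at 30.4, Tjp1 at 14.2, Dsc2 at 13.7 and Dsg2 at 11.7 FPKM. Gjc1 had 6.10 FPKM and Gja5 1.28 FPKM. The FPKM of single control hearts overlapped among Gja1, Jup and Cdh2 and among Tjp1, Dsc2 and Dsg2, so the order within those trios did not stand apart beyond the spread between hearts. Within each of the 6 control libraries, though, Gja1 exceeded Cdh2 and Dsc2 exceeded Dsg2. The other pairs of those trios changed order between libraries.

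In hearts labelled shRNA the desmosomal cadherins were far below control hearts while most of the plaque was not, and with TMM scaling the connexins moved in opposite directions. In batch LC 2 members were called higher (Gja5 and Gjc1), 6 were called lower (Dsg2, Dsc2, Tjp1, Gja1, Jup and Dsp) and 2 were not called (Pkp2 and Cdh2), at an edgeR adjusted p under 0.05 over all genes tested. In batch LA the same 2 were called higher, 7 were called lower, now with Cdh2, and Pkp2 was not called. Calls were common among all genes tested in both batches, with 62.9% called in batch LC (33.3% higher, 29.6% lower) and 61.4% in batch LA (32.4% higher, 29% lower), so the number of members called is no result in itself. Their median log2 fold change was −0.29 in batch LC and −0.21 in batch LA, against 0.05 over all genes in each. TMM scaling and scaling by library totals placed this median of all genes differently, at 0.05 against 0.47 in batch LC and 0.05 against 0.48 in batch LA. The falls of Dsg2 and Dsc2 and the rises of Gja5 and Gjc1 kept their direction and their call under both scalings, and the signs of Gja1, Tjp1, Dsp, Jup, Pkp2 and Cdh2 turned positive under library totals.

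Dsg2, the desmoglein of heart muscle, had 40.1, 45.1 and 43.1 CPM in hearts labelled shRNA, against 118, 106 and 90.2 CPM in control hearts of batch LC. In batch LA it had 44.4, 40.4 and 43.5 CPM in hearts labelled shRNA, against 95.01, 91.2 and 92.1 CPM in control hearts. All 6 libraries labelled shRNA lay far below all 6 control libraries. The log2 fold change was −1.29 ± 0.09 (edgeR adjusted p = 1.77e-10) in batch LC and −1.12 ± 0.09 (edgeR adjusted p = 1.51e-09) in batch LA, a fall by 59.2% and by 53.9%. Dsc2, the desmocollin that pairs with it, had 28.7, 31.1 and 23.6 CPM in hearts labelled shRNA, against 76.9, 73.1 and 70.1 CPM in control hearts of batch LC. The batch LA values were 30.6, 29.2 and 28.9 CPM in hearts labelled shRNA, against 76.2, 78.9 and 67.3 CPM in control hearts. Again the groups did not overlap, and the spread within a group was small beside the gap between groups. Dsc2 changed by −1.40 ± 0.09 on the log2 scale (edgeR adjusted p = 1.31e-10) in batch LC and by −1.33 ± 0.09 (edgeR adjusted p = 3.02e-10) in batch LA, which were the largest changes of any member in these comparisons. In bulk tissue fewer cells of a type and less RNA per cell cannot be told apart.

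**Figure D1:**
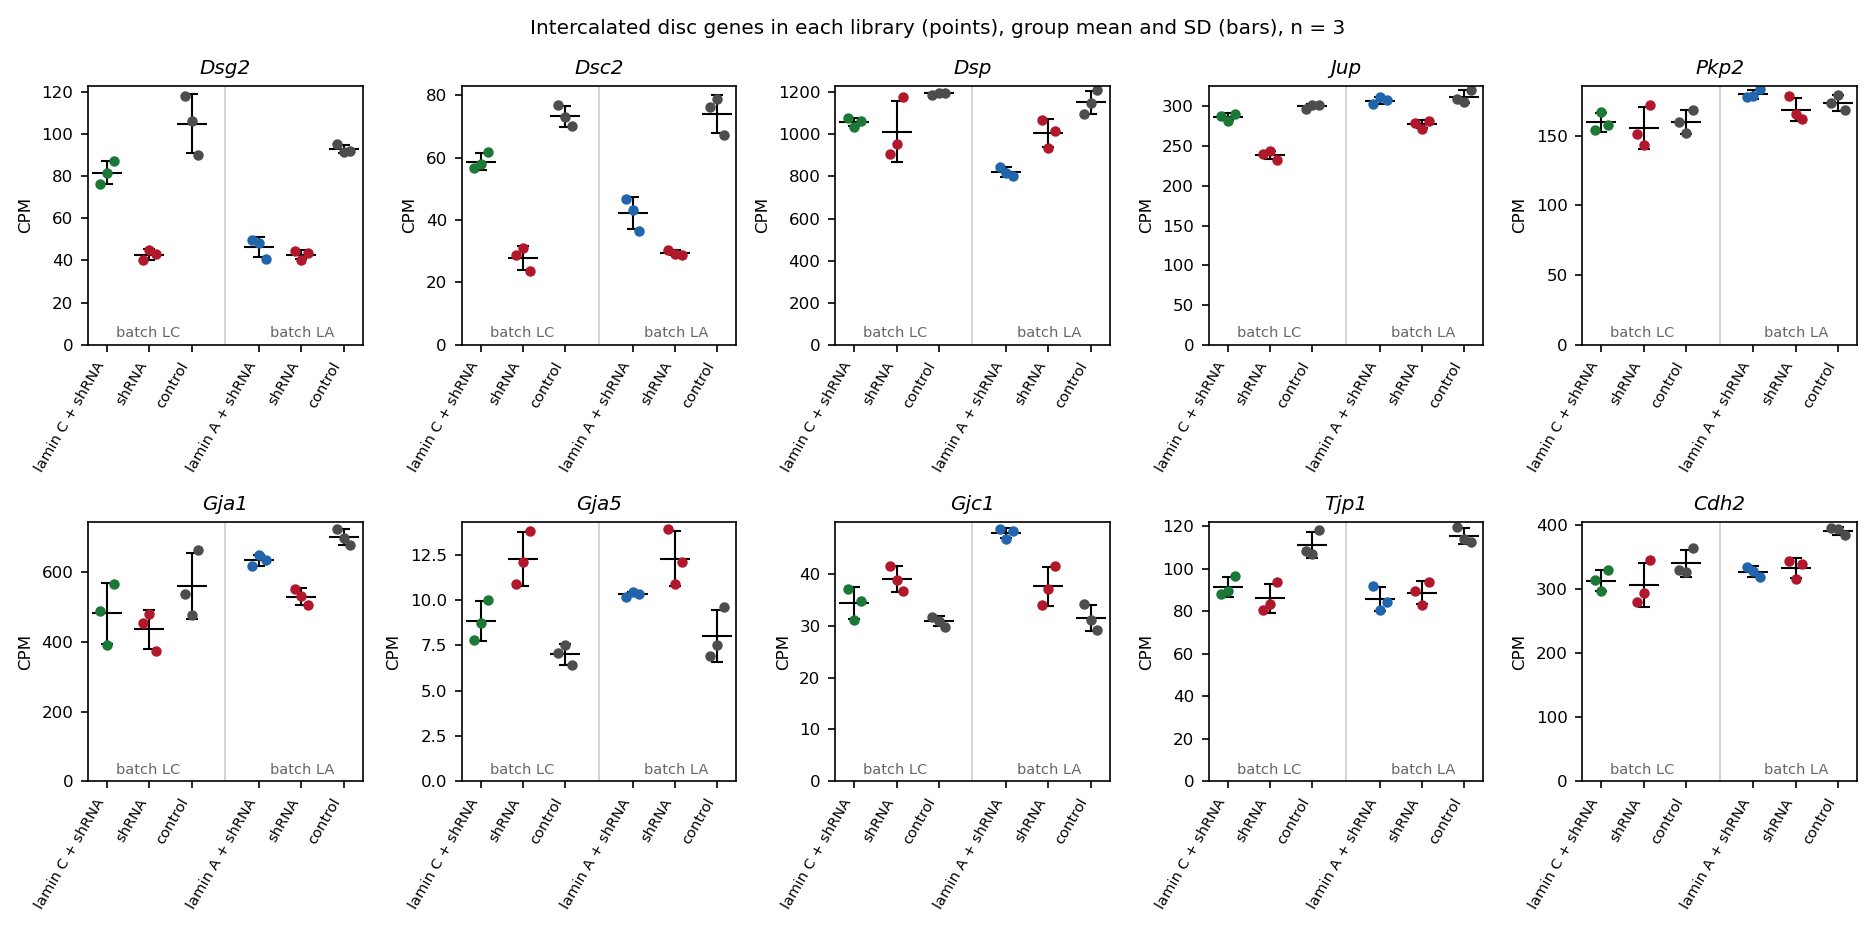
CPM of the 10 intercalated disc genes (y axes from 0, with their own scale for each gene) in the 18 libraries (points), with group mean and SD (bars, n = 3); batch LC is left and batch LA right in each panel. Dsg2 and Dsc2 are lowest in both groups labelled shRNA, and with lamin C they lie nearer to control hearts than with lamin A.

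The plaque genes differed among themselves. Jup, plakoglobin, which serves desmosomes and adherens junctions alike, had 240, 243 and 233 CPM in hearts labelled shRNA, against 297, 302 and 302 CPM in control hearts of batch LC. The groups were tight and separate, and the log2 fold change was −0.33 ± 0.04 (edgeR adjusted p = 1.66e-06). In batch LA Jup changed by −0.17 ± 0.04 (edgeR adjusted p = 0.00231), with 279, 272 and 281 CPM in hearts labelled shRNA and 309, 305 and 321 CPM in control hearts. Under library totals the signs turned, to 0.09 (edgeR adjusted p = 0.066) in batch LC and 0.27 (edgeR adjusted p = 2.13e-05) in batch LA.

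Dsp, desmoplakin, the linker to the desmin filaments, had 905, 955 and 1178 CPM in hearts labelled shRNA, against 1189, 1198 and 1197 CPM in control hearts of batch LC. Replicate 3 labelled shRNA came close to the control hearts, and the other 2 lay well below them. The log2 fold change was −0.24 ± 0.08 (edgeR adjusted p = 0.00986) in batch LC and −0.19 ± 0.08 (edgeR adjusted p = 0.0331) in batch LA, where Dsp had 1068, 936 and 1017 CPM in hearts labelled shRNA and 1098, 1147 and 1209 CPM in control hearts. These small falls were not stable: the call was lost in batch LC without replicate 1 labelled shRNA (−0.16, edgeR adjusted p = 0.0726) or with the compared groups fitted alone (edgeR adjusted p = 0.0632), and in batch LA without control replicate 2 or 3 or without replicate 2 or 3 labelled shRNA (−0.20, −0.16, −0.15 and −0.20, edgeR adjusted p = 0.0562 to 0.147). Under library totals Dsp was higher in hearts labelled shRNA, at 0.19 (edgeR adjusted p = 0.039) in batch LC and 0.25 (edgeR adjusted p = 0.00922) in batch LA.

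Pkp2, plakophilin of the heart, which binds the cadherin tails and desmoplakin, was not called in either batch. It had 151, 143 and 172 CPM in hearts labelled shRNA and 160, 152 and 169 CPM in control hearts of batch LC, and 178, 165 and 162 CPM in hearts labelled shRNA and 173, 179 and 168 CPM in control hearts of batch LA. The groups overlapped, with a log2 difference of −0.04 in both batches and a 95% interval of −0.18 to 0.09. Library totals put Pkp2 at 0.39 (edgeR adjusted p = 2.64e-05) in batch LC and 0.40 (edgeR adjusted p = 1.82e-05) in batch LA, below the all-gene median of that scaling.

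The ratio of FPKM values within a library does not depend on the scaling of libraries. Dsg2 amounted to 5.18%, 5.52% and 4.27% of Dsp in hearts labelled shRNA, against 11.6%, 10.3% and 8.80% in control hearts of batch LC. In batch LA the ratio was 4.86%, 5.04% and 5% in hearts labelled shRNA, against 10.1%, 9.29% and 8.90% in control hearts. All 6 libraries labelled shRNA stood below all 6 control libraries. The Dsc2 to Dsp ratio showed the same separation, with 3.66% to 5.97% in hearts labelled shRNA and 10.2% to 12.7% in control hearts over both batches. Such ratios show unequal change of the cadherins and the plaque linker, and do not show that either was unaltered.

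**Figure D2:**
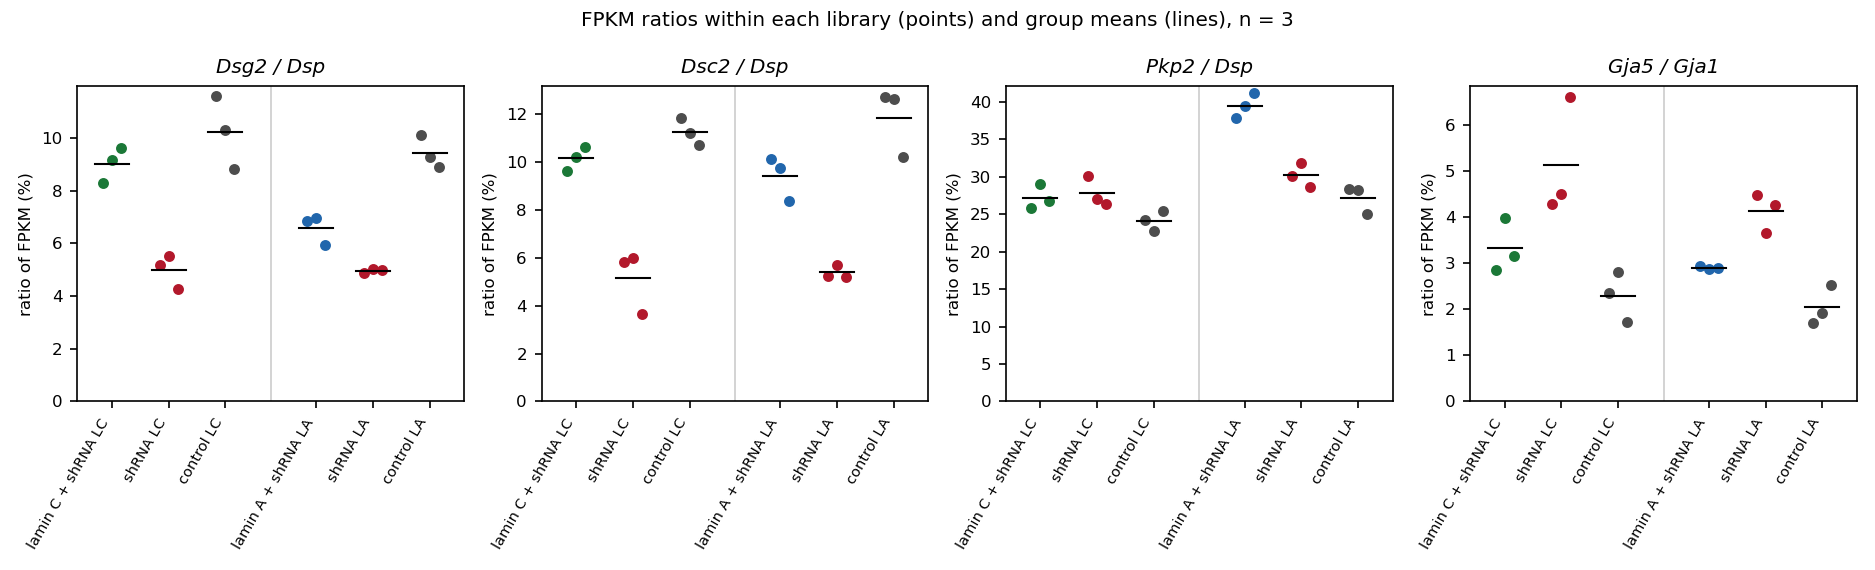
FPKM of Dsg2, Dsc2 and Pkp2 as a percent of Dsp, and of Gja5 as a percent of Gja1 (y axes from 0), in each library (points) with group means (lines, n = 3). Dsg2 to Dsp is 4.27% to 5.52% in the 6 libraries labelled shRNA and 8.80% to 11.6% in the 6 control libraries, and Pkp2 to Dsp is highest with lamin A (37.9% to 41.2%).

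The connexin genes Gja1 and Gja5 are shown with their promoter windows because their transcripts moved in opposite directions with TMM scaling, while under library totals Gja1 was not called in either batch. RefSeq entries (GRCm38.p6, 250 bases before to 50 bases after the start) were matched for 5 of the 10 members, Gja1, Gja5, Tjp1, Dsp and Jup. The windows were searched on both strands for AP-1 (TGANTCA), Sp1 (GGGCGG), T-box (GGTGTG), NKX2-5 (AAGTG), GATA factor (GATAA), E-box (CANNTG) and TATA box (TATAAA) letters, and matches are in capitals. The Gja1 window is chr10:56377050-56377349 and the Gja5 window chr3:97032152-97032451, both on the plus strand. The Gja1 window covers the first base of the gene span given above. The Gja5 window lies well inside its span, at a RefSeq start downstream of the first base.
Gja1: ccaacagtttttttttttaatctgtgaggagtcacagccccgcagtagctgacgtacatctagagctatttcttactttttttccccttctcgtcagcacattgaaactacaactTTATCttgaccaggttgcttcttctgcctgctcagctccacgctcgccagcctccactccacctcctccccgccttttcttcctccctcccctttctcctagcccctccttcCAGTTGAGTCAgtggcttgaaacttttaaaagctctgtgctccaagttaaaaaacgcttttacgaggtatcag
Gja5: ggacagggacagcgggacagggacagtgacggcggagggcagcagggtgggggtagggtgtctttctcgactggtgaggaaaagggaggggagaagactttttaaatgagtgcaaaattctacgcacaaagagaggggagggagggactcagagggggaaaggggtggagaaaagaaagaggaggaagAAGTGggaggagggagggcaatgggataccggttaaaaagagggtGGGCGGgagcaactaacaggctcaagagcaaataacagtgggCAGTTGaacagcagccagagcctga
In the Gja1 window the capitals mark GATA factor letters on the minus strand at −135 to −131, an E-box at −23 to −18 and AP-1 letters at −19 to −13, which overlap the E-box. In the Gja5 window they mark NKX2-5 letters at −62 to −58, Sp1 letters at −17 to −12 and an E-box at 25 to 30. Among all 32851 windows of the table, AP-1 letters occur in 7.81%, Sp1 in 35.7%, T-box in 19.0%, NKX2-5 in 46.4%, GATA factor in 25.4%, E-box in 72.3% and TATA box in 13.6%. A match is a run of letters and not a bound site.

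Gja1, the main connexin of ventricular muscle, had 453, 479 and 374 CPM in hearts labelled shRNA, against 537, 478 and 663 CPM in control hearts of batch LC. The groups overlapped, and control hearts varied widely. Control replicate 3, at 663 CPM, lay nearer to the control hearts of batch LA than to the others of batch LC. In batch LA it had 553, 530 and 505 CPM in hearts labelled shRNA, against 724, 696 and 678 CPM in control hearts, and there the groups were separate. The log2 fold change was −0.36 ± 0.12 (edgeR adjusted p = 0.0119) in batch LC and −0.40 ± 0.12 (edgeR adjusted p = 0.00597) in batch LA. The batch LC call was lost without control replicate 3 (−0.23, edgeR adjusted p = 0.0885) or without replicate 3 labelled shRNA (−0.26, edgeR adjusted p = 0.0727), and under library totals the change was 0.06 in batch LC and 0.04 in batch LA with no call in either.

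Gja5, the connexin of atrial muscle, the ventricular conduction system and arterial endothelium, went the other way. It had 10.9, 12.1 and 13.8 CPM in hearts labelled shRNA, against 7.06, 7.54 and 6.41 CPM in control hearts of batch LC, and 13.9, 10.9 and 12.1 CPM in hearts labelled shRNA, against 6.91, 7.54 and 9.63 CPM in control hearts of batch LA. Every library labelled shRNA lay above every control library. The log2 fold change was 0.81 ± 0.13 (edgeR adjusted p = 2.08e-05) in batch LC and 0.62 ± 0.13 (edgeR adjusted p = 0.000327) in batch LA, and it kept its call under every alternative run. Gja5 nonetheless remained a minor transcript beside Gja1, at 3.66% to 6.61% of its FPKM in hearts labelled shRNA and 1.70% to 2.82% in control hearts.

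Markers of the places where Gja5 is normally made moved in different ways. Their counts of calls, all with TMM scaling, are to be read against all genes, of which 62.9% were called in batch LC and 61.4% in batch LA. Of 6 arterial endothelial markers 0 were called higher and 3 lower in each batch, with a summed level of 84.0 to 111 CPM in hearts labelled shRNA and 106 to 123 CPM in control hearts of batch LC. In batch LA these sums did not overlap, at 87.6 to 91.3 CPM in hearts labelled shRNA and 108 to 118 CPM in control hearts. Of 6 conduction system markers 1 was called higher in each batch, and 2 in batch LC and 3 in batch LA lower, with sums of 80.6 to 83.5 CPM in hearts labelled shRNA and 82.2 to 91.7 CPM in control hearts of batch LC. The batch LA sums were 78.7 to 80.6 CPM in hearts labelled shRNA and 88.9 to 103 CPM in control hearts. Of 6 atrial markers 4 passed the filter, and 3 of them were higher and 1 lower in each batch. Their sum was 10540 to 15210 CPM in hearts labelled shRNA and 152 to 273 CPM in control hearts of batch LC, nearly all of it from Nppa, the natriuretic peptide that stressed ventricles also make. Myl4, an atrial light chain, had 8.69, 6.19 and 7.90 CPM in hearts labelled shRNA, against 2.06, 2.18 and 2.04 CPM in control hearts of batch LC, a log2 fold change of 1.86 ± 0.21 (edgeR adjusted p = 2.29e-07), and it changed by 2.15 ± 0.22 in batch LA (edgeR adjusted p = 4.75e-08). Myl7, the other atrial light chain, had 0.601, 0.453 and 0.892 CPM in hearts labelled shRNA, against 0.0327, 0.140 and 0.143 CPM in control hearts of batch LC, and was called higher in both batches. Those control hearts held 1, 4 and 4 Myl7 counts. Myl7 passed the filter only through hearts labelled shRNA, so its call as higher is no separate result. Stard10 was the marker called lower, with log2 changes of −1.08 in batch LC and −0.91 in batch LA. Sln and Bmp10 did not pass the filter, with 3 to 5 and 1 to 5 counts a library in hearts labelled shRNA and 0 in all control hearts of batch LC. Their part in the rise of Gja5 was not tested.

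Gjc1, the connexin of the nodes and of the embryonic mouse heart, had 41.5, 38.9 and 36.7 CPM in hearts labelled shRNA, against 31.8, 31.0 and 29.9 CPM in control hearts of batch LC. In batch LA it had 34.0, 37.2 and 41.6 CPM in hearts labelled shRNA, against 34.2, 31.2 and 29.2 CPM in control hearts. The groups were separate in batch LC and touched in batch LA, where replicate 1 labelled shRNA lay just under control replicate 1. Gjc1 was higher by 0.34 ± 0.08 (edgeR adjusted p = 0.000927) in batch LC and by 0.25 ± 0.08 (edgeR adjusted p = 0.00858) in batch LA. Single libraries decided the call in batch LA: without control replicate 3 the change was 0.20 (edgeR adjusted p = 0.0599) and without replicate 3 labelled shRNA 0.17 (edgeR adjusted p = 0.0743).

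Tjp1, the zonula occludens scaffold that borders the gap junction plaque, had 80.7, 83.5 and 93.8 CPM in hearts labelled shRNA, against 108, 107 and 118 CPM in control hearts of batch LC. The batch LA values were 89.7, 83.1 and 93.6 CPM in hearts labelled shRNA, against 120, 114 and 113 CPM in control hearts. No library labelled shRNA reached a control library, and the log2 fold change was −0.37 ± 0.07 (edgeR adjusted p = 0.000105) in batch LC and −0.38 ± 0.07 (edgeR adjusted p = 8.34e-05) in batch LA. Under library totals it was 0.06 in each batch, with no call. Cdh2, N-cadherin of the fascia adherens, had 279, 294 and 345 CPM in hearts labelled shRNA and 329, 326 and 365 CPM in control hearts of batch LC, with overlap and no call (−0.15 ± 0.07, edgeR adjusted p = 0.0622). That lay close to the threshold: Cdh2 was called lower by DESeq2 (−0.17, adjusted p = 0.0363), with RLE factors, in limma with the filter, without mitochondrially encoded genes, with the replicate block, and without control replicate 2 (−0.19) or replicate 3 labelled shRNA (−0.25), and it was called higher under library totals (0.27, edgeR adjusted p = 0.00309). In batch LA it had 344, 315 and 339 CPM in hearts labelled shRNA, against 395, 394 and 384 CPM in control hearts, and was called lower by TMM (−0.23 ± 0.07, edgeR adjusted p = 0.00652) but higher under library totals (0.20, edgeR adjusted p = 0.0206).

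**Figure D3:**
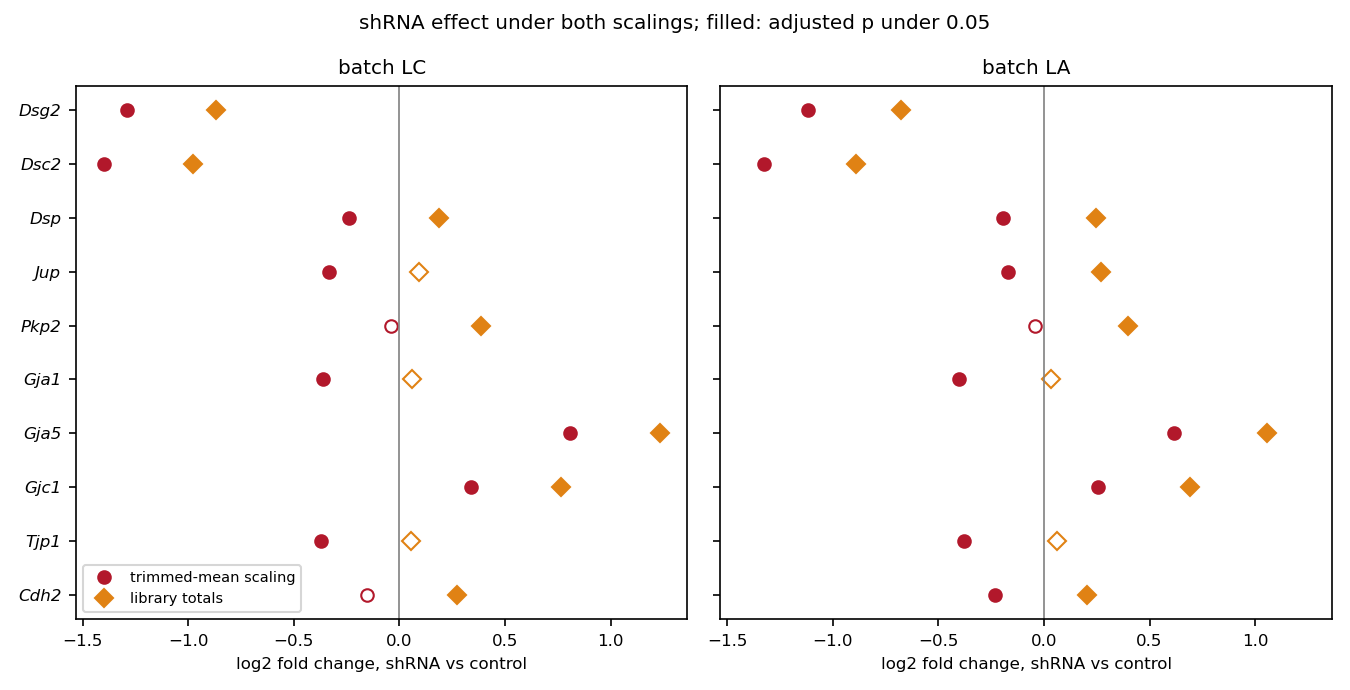
Log2 fold change of hearts labelled shRNA over control hearts (x axis) for the 10 genes with TMM scaling (circles) and with library totals (diamonds), filled where the edgeR adjusted p is under 0.05. Dsg2 and Dsc2 lie left of 0 and Gja5 and Gjc1 right of 0 under both scalings, while the other 6 genes are left of 0 with TMM and right of 0 with library totals.

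The size of the response in hearts labelled shRNA was also compared between the batches. None of the 10 genes was called for a difference (edgeR adjusted p = 0.715 to 1.00), and 1 of the 17876 genes was called (0.00559%). For Dsg2 the difference of log2 fold changes, batch LC minus batch LA, was −0.18 with a 95% interval of −0.43 to 0.08. The interval for Dsc2 was −0.35 to 0.20 and for Gja5 −0.19 to 0.57, so differences of those sizes were not detectable with 3 libraries a group. At an unadjusted p under 0.05 in edgeR 1 member differed (Jup, interval −0.29 to −0.04), and DESeq2 called 0 members.

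Cell type markers moved with these groups, beside 62.9% of all genes called in batch LC and 61.4% in batch LA. With TMM scaling, all 8 cardiomyocyte markers were called lower in both batches, with a median log2 change of −1.18 in batch LC and −1.10 in batch LA. Their summed level was 32200 to 36870 CPM in hearts labelled shRNA and 74370 to 77560 CPM in control hearts of batch LC. All 8 fibroblast markers and 7 of 8 macrophage markers were higher in both batches, and all 9 endothelial markers in batch LC and 8 of 9 in batch LA were lower. These marker calls were not repeated under library totals, which placed the all-gene median higher. The smaller falls may therefore depend on the scaling. Mitochondrially encoded genes took 13.0% to 15.6% of the counts in hearts labelled shRNA and 25.2% to 27.0% in control hearts. The cardiomyocyte markers differed among themselves, with log2 changes in batch LC of −1.82 for Tnni3 and −1.78 for Myh6, against −0.42 for Actc1, −0.41 for Tnnt2 and −0.37 for Mybpc3. The part of these shifts in the changes of the disc genes was not tested.

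With added lamin C the desmosomal cadherins Dsg2 and Dsc2 stood nearer to control hearts than to hearts labelled shRNA alone, and with added lamin A they did not. With lamin C, 3 members were called higher than in hearts labelled shRNA alone (Dsg2, Dsc2 and Jup) and 1 lower (Gja5), where 25.7% of all genes were called higher and 28.4% lower (54.1% in all). With lamin A, 3 were called higher (Dsc2, Gjc1 and Jup) and 1 lower (Dsp), where 16.1% of all genes were called higher and 13.7% lower (29.8% in all). The other members, 6 in each comparison, were not called.

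Dsg2 had 76.3, 81.4 and 87.3 CPM with lamin C, against 40.1, 45.1 and 43.1 CPM in hearts labelled shRNA alone. The groups were far apart, with a log2 fold change of 0.93 ± 0.09 (edgeR adjusted p = 3.32e-08). With lamin A it had 49.5, 48.5 and 40.8 CPM, against 44.4, 40.4 and 43.5 CPM in hearts labelled shRNA alone. These groups overlapped, and the change of 0.11 ± 0.09 was not called (edgeR adjusted p = 0.367, 95% interval −0.07 to 0.30). Dsc2 had 56.6, 58.1 and 61.7 CPM with lamin C, against 28.7, 31.1 and 23.6 CPM in hearts labelled shRNA alone, a log2 fold change of 1.08 ± 0.09 (edgeR adjusted p = 1.03e-08). With lamin A it had 46.7, 43.4 and 36.6 CPM, against 30.6, 29.2 and 28.9 CPM in hearts labelled shRNA alone. Here too the groups were separate, though less widely, with a change of 0.51 ± 0.09 (edgeR adjusted p = 0.000299).

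The difference between the lamin effects was itself tested, as lamin C in batch LC minus lamin A in batch LA. It was 0.82 ± 0.12 for Dsg2 (edgeR adjusted p = 0.00017) and 0.57 ± 0.13 for Dsc2 (edgeR adjusted p = 0.00494), and neither lost its call under any alternative run. Gjc1 differed by −0.53 ± 0.11 (edgeR adjusted p = 0.00203), since lamin C left it at 37.2, 31.2 and 34.8 CPM (−0.19 ± 0.08 against shRNA alone, edgeR adjusted p = 0.0518) while lamin A had 48.8, 46.7 and 48.2 CPM (0.35 ± 0.08, edgeR adjusted p = 0.00178). The lamin A libraries held the 3 highest Gjc1 values of the 18. Library totals kept the sign of the lamin A effect on Gjc1 but not its call (0.15, edgeR adjusted p = 0.175), and called Gjc1 lower with lamin C (−0.50, edgeR adjusted p = 5.06e-05). The lamin C effect was also called without replicate 3 labelled shRNA (−0.23, edgeR adjusted p = 0.0317) or lamin C replicate 1 (−0.24, edgeR adjusted p = 0.024). Dsp was called too, at 0.36 ± 0.11 (edgeR adjusted p = 0.0232). That call rested on single libraries: it was lost without replicate 1 or 2 labelled shRNA of batch LC (0.28 and 0.32), replicate 1 labelled shRNA of batch LA (0.31) or lamin A replicate 3 (0.34), with edgeR adjusted p of 0.0526 to 0.067, and under library totals (0.25, edgeR adjusted p = 0.127). In all 4 of the 10 members were called, where 18.7% of all genes were (8.84% higher, 9.9% lower). DESeq2 also called Jup for this difference (0.13, adjusted p = 0.0411), which edgeR did not. Lamin isoform, Lmna level and batch cannot be told apart in this difference. Each batch's own shRNA group takes out only what its lamin and shRNA hearts share.

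**Figure D4:**
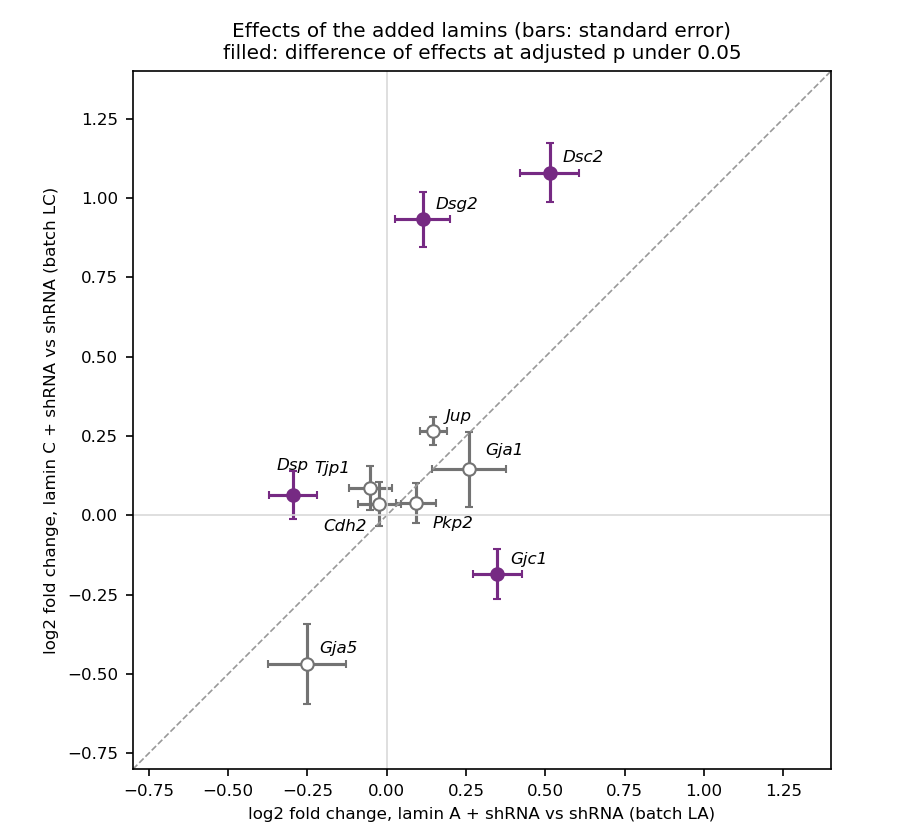
Log2 fold change of hearts with lamin C over hearts labelled shRNA alone (y axis, batch LC) against that of hearts with lamin A over hearts labelled shRNA alone (x axis, batch LA), with SE bars and a dashed line of equal effect. Filled points (Dsg2, Dsc2, Dsp and Gjc1) are genes whose difference of effects was called, and the Dsp call was lost under library totals.

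Dsp stood out with lamin A, where it fell below hearts labelled shRNA alone. It had 845, 814 and 802 CPM with lamin A, against 1068, 936 and 1017 CPM in hearts labelled shRNA alone and 1098, 1147 and 1209 CPM in control hearts of batch LA. The lamin A values were the 3 lowest of the 18 libraries. The log2 fold change was −0.30 ± 0.08 against shRNA alone (edgeR adjusted p = 0.00561) and −0.49 ± 0.08 against control hearts (edgeR adjusted p = 2.67e-05). Relative to Dsp, Pkp2 made up 37.9%, 39.4% and 41.2% of its FPKM with lamin A, against 30.1%, 31.8% and 28.7% in hearts labelled shRNA alone and 28.4%, 28.2% and 25.0% in control hearts. The Jup to Dsp ratio was 53.7% to 57.6% with lamin A, 39.3% to 43.5% in hearts labelled shRNA alone and 39.9% to 42.3% in control hearts. Both ratios were higher in every lamin A library than in any other library of the batch. With lamin C, Dsp had 1076, 1037 and 1062 CPM, within the range of hearts labelled shRNA alone (0.06 ± 0.08, edgeR adjusted p = 0.493), and it was called higher without replicate 3 labelled shRNA (0.19, edgeR adjusted p = 0.0115).

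Jup was higher with either lamin. It had 288, 282 and 291 CPM with lamin C, against 240, 243 and 233 CPM in hearts labelled shRNA alone, and 302, 311 and 308 CPM with lamin A, against 279, 272 and 281 CPM in hearts labelled shRNA alone. No libraries overlapped, and the log2 fold changes were 0.27 ± 0.04 (edgeR adjusted p = 3.49e-05) and 0.15 ± 0.04 (edgeR adjusted p = 0.0144), but both signs turned under library totals, to −0.05 and −0.06. The lamin A call was also lost without replicate 2 labelled shRNA (edgeR adjusted p = 0.0594) or lamin A replicate 2 (edgeR adjusted p = 0.051), without the filter on low counts (edgeR adjusted p = 0.0966) and with the compared groups fitted alone (edgeR adjusted p = 0.053). Gja5 had 7.79, 8.74 and 10.01 CPM with lamin C, against 10.9, 12.1 and 13.8 CPM in hearts labelled shRNA alone, and fell by 0.47 on the log2 scale (SE 0.13, edgeR adjusted p = 0.00385). With lamin A it had 10.2, 10.4 and 10.4 CPM, against 13.9, 10.9 and 12.1 CPM in hearts labelled shRNA alone, which was not called (−0.25 ± 0.12, edgeR adjusted p = 0.137) except under library totals (−0.45, edgeR adjusted p = 0.00623). The lamin effects on Gja5 did not differ detectably (−0.22, 95% interval −0.58 to 0.15).

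Gja1 and Pkp2 were called with neither lamin. Gja1 had 487, 391 and 566 CPM with lamin C, against 453, 479 and 374 CPM in hearts labelled shRNA alone, with overlap (0.15 ± 0.12, edgeR adjusted p = 0.313), and with a call only without lamin C replicate 2 (0.28, edgeR adjusted p = 0.0497). With lamin A it had 618, 648 and 635 CPM, above all of the 553, 530 and 505 CPM in hearts labelled shRNA alone, yet at 0.26 ± 0.12 the test did not call it (edgeR adjusted p = 0.107). Fitting the 2 groups alone (0.25, edgeR adjusted p = 0.0044) or without the filter (0.27, edgeR adjusted p = 0.000381) gave it a call. Tjp1 had 87.9, 89.4 and 96.5 CPM with lamin C (0.09 ± 0.07) and 91.9, 80.7 and 84.5 CPM with lamin A (−0.05 ± 0.07), without a call in either. Pkp2 had 154, 167 and 158 CPM with lamin C (0.04 ± 0.06) and 178, 178 and 183 CPM with lamin A (0.09 ± 0.06), again without a call. Cdh2 likewise stayed near hearts labelled shRNA alone, at 314, 297 and 329 CPM with lamin C and 335, 328 and 319 CPM with lamin A. Under library totals Tjp1, Pkp2, Cdh2 and Dsp were, like Gjc1 and Gja5, called lower with lamin C than in hearts labelled shRNA alone (−0.23, −0.28, −0.28 and −0.25), below which lay the all-gene median of −0.36. With lamin A that scaling called Tjp1 (−0.25) and Cdh2 (−0.23) lower, as it did Gja5 and Dsp, beside an all-gene median of −0.21.

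The hearts with added lamin were also set against control hearts, from which fewer of all genes differed with lamin C than with lamin A. With lamin C, 0 members were called higher and 3 lower: Dsg2 (−0.36 ± 0.09, edgeR adjusted p = 0.00802), Dsc2 (−0.32 ± 0.09, edgeR adjusted p = 0.0222) and Tjp1 (−0.28 ± 0.07, edgeR adjusted p = 0.00843), where 15% of all genes were called (8.87% higher, 6.18% lower). The 7 without a call had edgeR adjusted p of 0.0961 (Gja5) to 0.989 (Pkp2), with Gja5 higher (0.34) and Dsp lower (−0.17) at an unadjusted p under 0.05, and DESeq2 called 0 members higher. Dsp was called lower with the compared groups alone (edgeR adjusted p = 0.0446), and without the filter Gja1 was called lower (−0.20) and Gja5 higher (0.35). The 3 calls were lost without lamin C replicate 1, with values nearly as large: Dsg2 at −0.31 (edgeR adjusted p = 0.0538), Dsc2 at −0.29 (edgeR adjusted p = 0.0968) and Tjp1 at −0.25 (edgeR adjusted p = 0.0517). Without control replicate 1 the calls of Dsg2 (−0.26, edgeR adjusted p = 0.0587) and Dsc2 (−0.28, edgeR adjusted p = 0.0884) were lost, and without lamin C replicate 2 that of Dsc2 (−0.31, edgeR adjusted p = 0.0558). Under library totals none of the 3 was called (−0.25, −0.21 and −0.17, edgeR adjusted p = 0.0538 to 0.129), and Gja5 (0.45, edgeR adjusted p = 0.024) and Gjc1 (0.27, edgeR adjusted p = 0.0394) were called higher.

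With lamin A, 2 members were called higher and 5 lower than in control hearts, where 46.2% of all genes were called (24.1% higher, 22.1% lower). Dsg2 remained at −1.004 ± 0.09 (edgeR adjusted p = 2.31e-08), Dsc2 at −0.81 ± 0.09 (edgeR adjusted p = 6e-07), Tjp1 at −0.43 ± 0.07 (edgeR adjusted p = 3.68e-05) and Cdh2 at −0.26 ± 0.07 (edgeR adjusted p = 0.0049, with no call under library totals), beside the Dsp value above. Gjc1 was higher by 0.60 ± 0.08 (edgeR adjusted p = 3.32e-06). Gja5 was higher by 0.37 ± 0.13 (edgeR adjusted p = 0.0259), a call that was lost without control replicate 1 (0.26) or 2 (0.32) or lamin A replicate 2 (0.35) or 3 (0.37), and in limma on FPKM without a filter (0.22). The distance from control hearts differed between the batches for Dsg2 (0.65 ± 0.12, lamin C minus lamin A, edgeR adjusted p = 0.0017), Dsc2 (0.49 ± 0.13, edgeR adjusted p = 0.0144, and 0.37 with no call under library totals) and Gjc1 (−0.45 ± 0.11, edgeR adjusted p = 0.0104), where 14.6% of all genes differed (7.29% higher, 7.35% lower). Dsp was just outside that threshold (0.31 ± 0.11, edgeR adjusted p = 0.0552), and it was called by DESeq2 (0.32, adjusted p = 0.0174), with RLE factors, without the filter, in limma with the filter, without mitochondrially encoded genes and with the compared groups alone.

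**Figure D5:**
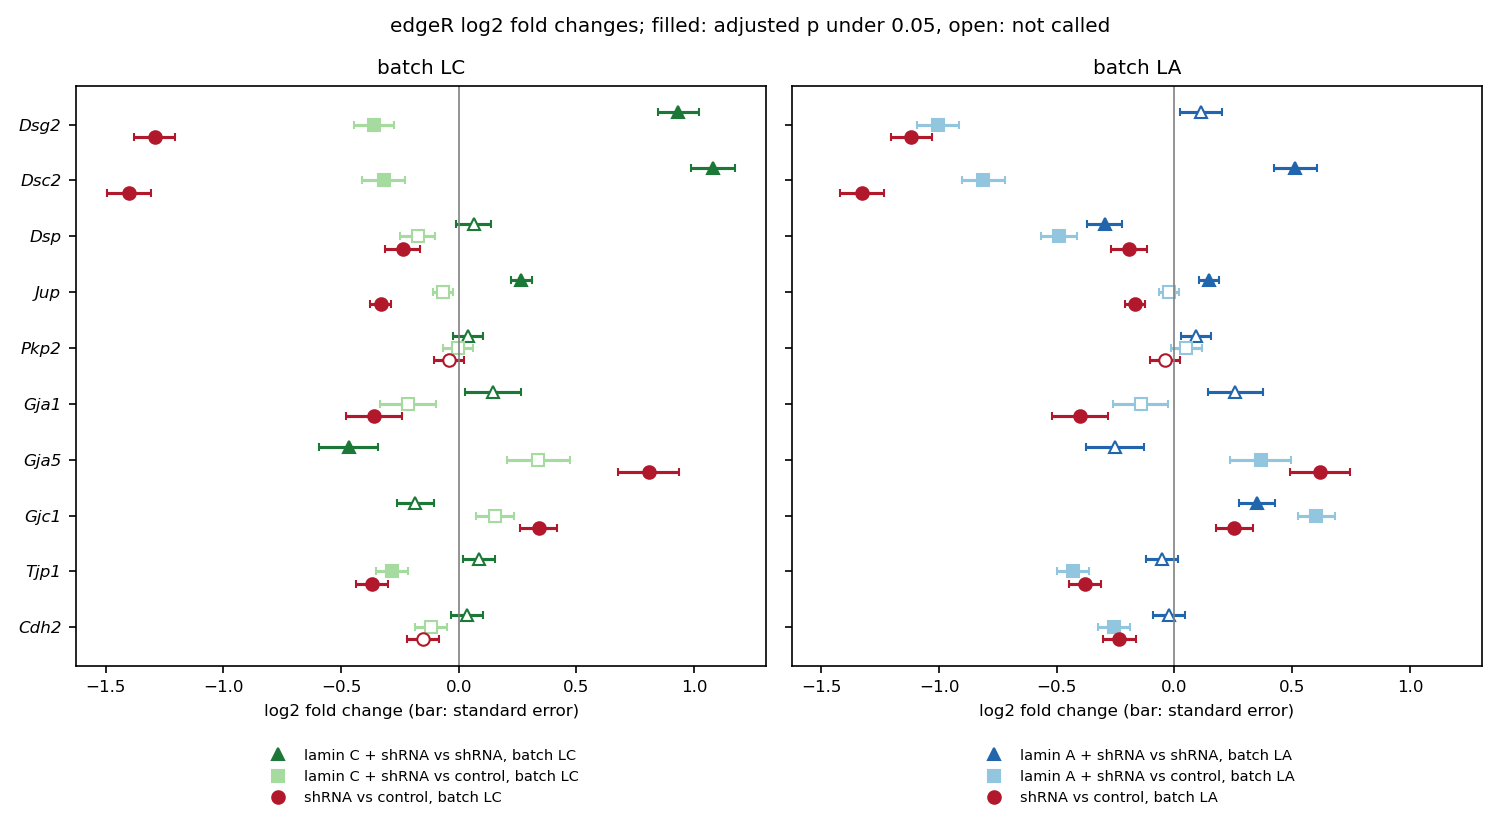
Log2 fold changes of the 10 genes with SE bars (x axis) in batch LC (left) and batch LA (right), for lamin plus shRNA over shRNA (triangles), lamin plus shRNA over control (squares) and shRNA over control (circles), filled where the edgeR adjusted p is under 0.05. TMM values are drawn; under library totals the shRNA signs of Dsp, Jup, Pkp2, Gja1, Tjp1 and Cdh2 turn. For Dsg2 the square lies at −0.36 with lamin C and at −1.004 with lamin A.

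Cardiomyocyte and stromal markers again moved with the lamin groups. The summed cardiomyocyte level was 62430 to 64240 CPM with lamin C and 47510 to 49930 CPM with lamin A, against 34540 to 36020 CPM in hearts labelled shRNA alone of batch LA and the values above in batch LC. Fibroblast sums were 1579 to 2203 CPM with lamin C, against 4791 to 6065 CPM in hearts labelled shRNA alone of batch LC. With lamin A they were 3911 to 5024 CPM, against 5349 to 5903 CPM in hearts labelled shRNA alone of batch LA. Whether these shifts take part in the lamin effects on Dsg2, Dsc2, Gjc1 and Dsp was not tested.

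The remaining genes of the disc were read from lists of partners. Over all genes tested, 62.9% were called for shRNA in batch LC (33.3% higher, 29.6% lower). In batch LA 61.4% were called (32.4% higher, 29% lower). Counts of called partners, all with TMM scaling, are to be read against those shares and are no result in themselves. Of 7 scaffolds and channels of the disc, all were tested, and 6 were called lower and 1 higher in hearts labelled shRNA of each batch, with a median log2 change of −0.40 in batch LC and −0.33 in batch LA, against 0.05 over all genes. Tmem65, a disc membrane protein that mice need for gap junction placement, had 99.9, 119 and 92.7 CPM in hearts labelled shRNA, against 257, 252 and 229 CPM in control hearts of batch LC, a log2 fold change of −1.24 ± 0.08 (edgeR adjusted p = 5.54e-11). The groups stood wide apart, as they did in batch LA (−1.16 ± 0.08, edgeR adjusted p = 1.73e-10). Lmo7, an afadin and emerin binding protein, changed by −0.84 ± 0.09 in each batch (edgeR adjusted p = 6.72e-08 and 7.53e-08). Dlg1, a channel scaffold, changed by −0.28 ± 0.05 in batch LC and −0.29 ± 0.05 in batch LA, and under library totals it turned positive in both batches (0.15 each).

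With lamin C the scaffolds Tmem65 (0.95 ± 0.08, edgeR adjusted p = 5.19e-09) and Lmo7 (0.54 ± 0.09, edgeR adjusted p = 3.11e-05) were higher than in hearts labelled shRNA alone. With lamin A, Tmem65 was higher by 0.56 ± 0.08 (edgeR adjusted p = 2.05e-05), and Lmo7 was not called (0.05 ± 0.09, edgeR adjusted p = 0.722).

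Of 9 partners of the fascia adherens, all tested, 2 were higher and 4 lower in hearts labelled shRNA of batch LC, and 1 was higher and 3 were lower in batch LA, with medians of −0.07 and −0.01. Xirp2, an actin-binding repeat protein of the disc, had 992, 960 and 1263 CPM in hearts labelled shRNA, against 441, 409 and 561 CPM in control hearts of batch LC, a log2 fold change of 1.19 ± 0.13 (edgeR adjusted p = 1.09e-07), and it changed by 1.37 ± 0.13 in batch LA. The catenin Ctnna3 changed by −0.56 ± 0.08 and −0.62 ± 0.08 in batches LC and LA, and Afdn, the adaptor of nectins, by −0.70 ± 0.07 and −0.40 ± 0.07, with Afdn at 0.04 in batch LA under library totals. Ctnna1 was called in batch LC (−0.32 ± 0.05) and not in batch LA (−0.12 ± 0.05, edgeR adjusted p = 0.0626), and its sign turned under library totals (0.11 and 0.32).

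Outside the members, 10 of 20 connexins and pannexins passed the filter, several of them only through a group in which they were high, and 5 were called higher and 2 lower in each batch. Panx1, a channel that releases ATP, had 28.4, 23.0 and 30.3 CPM in hearts labelled shRNA, against 1.73, 1.97 and 2.18 CPM in control hearts of batch LC. That was a log2 fold change of 3.798 ± 0.18 (edgeR adjusted p = 1.43e-12), larger than that of any member, and in batch LA it was 3.68 ± 0.18. Panx1 had 5.90, 3.39 and 5.04 CPM with lamin C and 14.3, 11.8 and 16.2 CPM with lamin A. Gja3, a connexin best known from the lens, had the opposite course, at −1.09 ± 0.10 in hearts labelled shRNA of batch LC and −1.10 ± 0.10 in batch LA. It was higher by 1.00 ± 0.10 with lamin C and 0.52 ± 0.10 with lamin A than in hearts labelled shRNA alone. Gjb5 held 122 counts over hearts labelled shRNA and 3 over control hearts of batch LA, 28.6 times as many after scaling to library size (95% counting interval 9.57 to 141). Gjb5 passed the filter through groups in which it was high, so its call as higher is no separate result.

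Of 13 further desmosomal and cornified envelope proteins 5 passed the filter, and 2 were higher and 1 lower in batch LC, 3 higher and 2 lower in batch LA. Ppl, periplakin, a plakin related to desmoplakin, had 1.97, 2.91 and 2.34 CPM in hearts labelled shRNA, against 11.2, 12.6 and 6.23 CPM in control hearts of batch LC, a log2 fold change of −2.07 ± 0.22 (edgeR adjusted p = 1.41e-07). It was higher by 1.86 ± 0.22 with lamin C (edgeR adjusted p = 9.02e-07) and not called with lamin A (0.41 ± 0.25, edgeR adjusted p = 0.236). Perp, a desmosomal membrane protein, was higher by 0.54 ± 0.07 in hearts labelled shRNA of batch LC and by 0.52 ± 0.07 in batch LA, and Evpl, envoplakin, by 1.52 ± 0.41 and 1.08 ± 0.43. Pkp3 was called in batch LA (1.79 ± 0.70) and not in batch LC (1.49 ± 0.68, edgeR adjusted p = 0.0635).

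Among 7 other cadherins 6 were tested, with 3 higher and 2 lower in each batch. Cdh1 and Cdh3 passed the filter only through groups in which they were high, so their calls as higher are no separate result. Cdh5, of endothelial junctions, changed by −0.80 ± 0.06 in batch LC and −0.73 ± 0.06 in batch LA, beside the endothelial markers above. Cdh11, of mesenchymal cells, was higher by 1.86 ± 0.28 and 1.88 ± 0.28, and Cdh3 by 3.76 ± 0.52 and 2.83 ± 0.47. Cdh3 held 55, 43 and 44 counts in hearts labelled shRNA and 2, 1 and 4 in control hearts of batch LC. In batch LA it held 27, 56 and 42 counts in hearts labelled shRNA, against 1, 4 and 7 in control hearts. Cdh1, of epithelia, held 59 counts over hearts labelled shRNA and 0 over control hearts of batch LC, which is at least 13.7-fold higher against a floor of 3 counts over the group. In batch LA it held 46 counts over hearts labelled shRNA and 1 over control hearts, 32.4 times as many after scaling to library size (95% counting interval 5.53 to 1310).

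The genes most like Gja1 and Gja5 in their course over the 6 group means were sought by the mean absolute difference of log2 CPM after centring each gene, among 10497 protein-coding genes that averaged 5 CPM or more. Nearest to Gja1 were Enpep (0.04), Map3k1 (0.04) and St5 (0.04). Nearest to Gja5 were Rassf4 (0.01), Mitd1 (0.02) and Prcp (0.03). These are descriptions over 6 points from 18 libraries.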

How the data were processed

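RNA sequencing of 18 heart apex libraries was analysed. Per the labels' protocols, polyadenylated RNA was made into directional libraries with dUTP. Per the submitters' processing notes the build was mm10, and they name DESeq2 1.20.0, StringTie 1.3.3b, featureCounts 1.5.0-p3 and HISAT2 2.0.5 without saying what each did. Raw counts per gene were deposited by the authors, together with FPKM values that the authors derived from the same counts, gene length and an adjusted library size, as the values show.

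Counts were tested in R 4.3.3 by edgeR 4.0.16 (quasi-likelihood F test), using TMM factors, filterByExpr and a single fit of 6 groups (18 libraries, 12 residual degrees of freedom). p-values were adjusted by Benjamini-Hochberg over 17876 genes, with a threshold of 0.05, and standard errors were taken from the F statistics. The batches were compared only through their own groups. FPKM served to order genes and for ratios between genes.

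Alternatives were DESeq2 1.42.0, RLE factors, library totals, no filter on low counts, limma 3.58.1 on log2(FPKM + 1) or log2(FPKM + 0.1), leaving out each library, the replicate number as a block, fitting only the compared groups, and dropping mitochondrially encoded genes. A fit without the third control of each batch was chosen after seeing the data. In the column headers these controls carry neighbouring numbers, away from those of the other controls of their batches. What that numbering stands for is not stated. The tests were tried on simulated counts. No libraries of a group were duplicates (chi-square per degree of freedom 6.38 to 43.4).

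The members and lists were chosen with earlier results of these data known. Named were all members, Lmna, up to 4 genes of each other list with the smallest p between shRNA and control in batch LC, and the 3 genes most like Gja1 and Gja5, except genes that are not reported here. Counting intervals and floors of 3 counts cover counting error only.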

Additional observations from a re-analysis of the deposited data

Results flagged for a closer look

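For these genes the effect of the added lamin differed between the batches by the test of the difference itself (edgeR adjusted p under 0.05, lamin C in batch LC minus lamin A in batch LA). Among the members the log2 differences were 0.82 for Dsg2, 0.57 for Dsc2, 0.36 for Dsp and −0.53 for Gjc1. Lmna differed by 1.21, since lamin C raised its counts further than lamin A did. Among the partners the difference was 1.45 for Ppl, 0.49 for Lmo7, 0.48 for Gja3, 0.43 for Ctnna3, 0.39 for Tmem65, −0.78 for Xirp2, −1.67 for Panx1 and −2.46 for Gjb5. Gjb5 held 3 counts over control hearts of batch LA. It passed the filter through groups in which it was high, so its difference is no separate result.

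The distance from control hearts also differed between lamin C and lamin A by the same kind of test. It differed by 0.65 for Dsg2, 0.49 for Dsc2 and −0.45 for Gjc1 among the members, and by 1.16 for Lmna. Among the partners it differed by 1.14 for Ppl, 0.49 for Ctnna3, 0.49 for Gja3, 0.49 for Lmo7, −0.96 for Xirp2 and −1.55 for Panx1. These values share the lamin libraries with those above and are no separate evidence.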

How the results depend on the processing

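Scaling mattered most. Under library totals the median of all genes was 0.47 for shRNA in batch LC (81.2% of called genes higher, against 52.9% by TMM), 0.48 for shRNA in batch LA (82.4%, against 52.7%), −0.36 for lamin C over shRNA (20.2%, against 47.5%), −0.21 for lamin A over shRNA (17.1%, against 54.1%), 0.11 for lamin C over control (90.8%, against 58.9%), 0.26 for lamin A over control (81.3%, against 52.2%), −0.12 for the difference of lamin effects (25.2%, against 47.2%) and −0.13 for the difference of residuals (22.3%, against 49.8%). Signs that turned are listed only where either scaling gave a call, so turns without any call are left out. For shRNA in batch LC they were Gja1 0.062, Tjp1 0.057, Dsp 0.19, Pkp2 0.39, Jup 0.093, Cdh2 0.27, Ctnna1 0.11 and Dlg1 0.15. Those in batch LA were Gja1 0.035, Tjp1 0.061, Dsp 0.25, Pkp2 0.40, Jup 0.27, Cdh2 0.20, Afdn 0.039, Ctnna1 0.32 and Dlg1 0.15. With lamin C over shRNA they were Tjp1 −0.23, Dsp −0.25, Pkp2 −0.28, Jup −0.046, Cdh2 −0.28, Ctnna1 −0.064 and Dlg1 −0.24, with lamin A over shRNA Jup −0.056, Ctnna1 −0.14 and Dlg1 −0.16, and with lamin A over control Jup 0.21 and Ctnna1 0.19. Members called then numbered 5 higher and 2 lower (shRNA, LC), 6 and 2 (shRNA, LA), 2 higher (Dsg2 and Dsc2) and 6 lower (lamin C over shRNA), 1 higher and 4 lower (lamin A over shRNA), 2 higher and 0 lower (lamin C over control), 4 higher and 4 lower (lamin A over control) and 1 higher and 1 lower for the difference of residuals.

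Under the other settings no member's sign turned where either fit gave a call, and turns without a call were not counted. Without the filter 1 member was called higher with lamin C over control, and limma without the filter called 1 higher with lamin A over control. Of all genes, 247 differed in the shRNA effect between batches without the filter, 5 by DESeq2, 4 by limma without the filter, and 0 with the compared groups alone. Without the third control of each batch 24 did, 1 member was called higher for shRNA in batch LA, and 1713 genes differed in residuals. Leaving out single libraries gave 0 to 47 genes for that difference of shRNA effects, 0 to 3 members lower and 1507 to 2680 genes for lamin C over control, 1 to 2 members lower for lamin C over shRNA, and 1 to 2 members higher for shRNA in batch LA and for lamin A over control. The cause of these shifts was not tested.

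Same-numbered libraries did not deviate together (r −0.05 to 0.06 in batch LC, −0.02 to 0.02 in batch LA). With the replicate block Cdh2 was called lower for shRNA in batch LC (−0.16, edgeR adjusted p = 0.0234), no other member's call changed under the block, and 0 genes differed in the shRNA effect between batches. At this depth the lowest genes, such as Cdh1, Cdh3, Gjb5 and Myl7, were limited by their few counts in control hearts.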
